A study of Ovis aries with 2 samples.

Results

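Prostaglandins are lipid signals made from arachidonic acid. Phospholipases release the fatty acid from membranes, the prostaglandin H synthases (cyclooxygenases) convert it, terminal synthases give each prostaglandin its final form, and membrane receptors read it until dehydrogenases and reductases break it down. The elongating conceptus of the sheep makes prostaglandins, and some prostaglandins and their keto breakdown products can activate PPARG (peroxisome proliferator-activated receptor gamma), a nuclear receptor that pairs with a retinoid X receptor on DNA. The genes described here are 5 of this pathway, PLA2G15, PTGS2, PTGES, PTGR2 and PTGFRN, out of 16387 named protein-coding genes. Their intervals were sought by looking for each name in the gene column of the deposited list of PPARG-bound intervals. In that list, 3 of the 5 had at least 1 assigned interval, with 4 intervals in all, and PTGS2 and PTGES had none. Among all named genes 9.28% had one. The 5 were picked with these intervals known, so 3 of 5 cannot be read against that share.

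The intervals come from chromatin immunoprecipitation and sequencing (ChIP-seq) of sheep conceptuses, which are embryos with their extraembryonic membranes, on day 14 of pregnancy. Tissue of 4 conceptuses, each from another columbia/ramboulette crossbred ewe, was pooled, and gave 1 PPARG library, for which rabbit polyclonal IgG to PPARG was used, and 1 input library of total sheared chromatin without immunoprecipitation. Neither library was replicated, so no value below has an error between animals and no difference was tested. The tissue was used whole, and a binding list holds no marker level that could check which cells it came from. The PPARG library had 2288 intervals and the input library 5. Height is the highest signal in an interval, in the authors' deposited units, the read totals are unknown, and positions refer to build Oar_v3.1.

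PTGR2 had the highest interval of the 5 genes and the only one within 1 kb of the start of the gene itself. Its product, prostaglandin reductase 2, reduces the keto products of prostaglandin breakdown, and in mouse adipocyte cultures such a keto prostaglandin was described as a PPARG ligand. The interval lay on chromosome 7 from 82173303 to 82174228 and reached a height of 34, with a mean signal of 13.3 over its 29 bins. Its summit was 15 bp upstream of the PTGR2 start, and the authors' table marked 1 CpG island and 1 promoter in it. No other gene was assigned to it. Of all 2288 PPARG intervals, 455 were higher and 79.0% were lower. No input interval overlapped it by 1 bp or more, as was so for all but 5 of the 2288 PPARG intervals.

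Among sites of its kind this height lay between the quartiles. The list held 44 intervals whose only gene started within 100 bp downstream of the summit, PTGR2 included, and their median height was 35.5, with quartiles of 23.8 and 48.2. A CpG island was marked in 36 of these 44 (81.8%), as at PTGR2. The height was 2.55 times the interval's mean. That ratio lay between the quartiles of 1.99 and 2.73 of the 423 intervals that, like it, carried both marks, whose median was 2.36, while over all intervals the median was 2.14 and the quartiles were 1.88 and 2.48. The intervals most like it, by position relative to the first listed gene, both marks and height, lay upstream of CCNT1, a cyclin that acts in transcription elongation, of C22H10orf137 and of ZKSCAN2, a zinc finger gene. All 3 had a height of 34, at 118, 216 and 782 bp upstream. This likeness rests on 1 library.

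PLA2G15 was the only one of the 5 genes with more than 1 interval, and neither lay within 5 kb of its start. It encodes a lysosomal phospholipase A2, an enzyme that frees fatty acids from phospholipids. The lower interval lay on chromosome 14 from 34954632 to 34956694, and reached 17, with its summit 7807 bp upstream of the PLA2G15 start. The higher lay from 34975362 to 34976404, and reached 27, 12497 bp downstream of the start, which the table placed beyond the end of the gene. Both distances gave the same gene start, 34963375, so the summits stood on either side of the gene, 20.3 kb apart, and no interval was listed within it. Neither overlapped an input interval, as was so for nearly all PPARG intervals. Of the 1833 gene names in the list, 241 (13.1%) had at least 2 intervals, as PLA2G15 did.

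Both PLA2G15 intervals were also assigned to a gene whose start lay closer to the summit. The lower one lay inside ESRP2, an epithelial splicing regulator gene, 930 bp from its start, and was also assigned to NFATC3, a transcription factor gene whose start was 98479 bp away. It carried 1 CpG island and 2 promoter marks. At 2062 bp it was longer than 98.9% of all intervals, and its height was only 1.84 times its mean signal of 9.22. The higher one lay 3399 bp upstream of SLC7A6, an amino acid transporter gene, with 1 promoter mark and no CpG island. Its height was 2.27 times its mean signal of 11.9. Among the 1518 intervals with a gene, 442 (29.1%) had at least 2 genes and 130 (8.56%) had at least 3.

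The 2 PLA2G15 intervals differed in rank, with 23.4% of all intervals lower than the one at ESRP2 and 65.1% lower than the one at SLC7A6. Without replicates it cannot be said whether their heights of 17 and 27 differ. Most like the lower one were intervals first assigned to ZCCHC4 and PPP6R2, with 17 each, and to WEE2 with 18. For the higher one they were first assigned to OTUD5 and ATP6V0A1, with 27 each, and to GBA2 with 28. The first genes listed at the PLA2G15 intervals were NFATC3 and PLA2G15, both as downstream, so these matches share that class. All 6 matches were assigned to at least 1 further gene, as both PLA2G15 intervals were. The matching asked for a promoter mark downstream of the first gene, so a further gene was largely built into it.

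PTGFRN had the lowest interval of the group, upstream of the gene and away from its start. Its product is a membrane protein of the immunoglobulin superfamily that was described in the rat as lowering the binding of prostaglandin F to its receptor. The interval lay on chromosome 1 from 93437945 to 93438883, with a height of 15 and a mean signal of 8.60. Its summit was 4515 bp upstream of the PTGFRN start, and the table marked a promoter but no CpG island. No other gene was assigned to it. As at nearly all PPARG intervals, no input interval overlapped it. Of all intervals, 12.8% were lower and 1868 were higher, and ranked by mean signal 22.1% lay below it.

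The PTGFRN height was low also among sites at a like distance. For the 22 intervals that lay 4 to 5 kb upstream of their only gene, PTGFRN included, the median height was 20.5, with quartiles of 18.0 and 25.0. Only 1 of these 22 held a CpG island, and all 22 had a promoter mark, so the mark reached that far upstream. Of the 4 intervals that of PTGFRN rose least above its own mean, by a ratio of 1.74, below the lower quartile of 1.88 over all intervals. Its nearest matches were FMO4, a flavin monooxygenase gene, WDR59, which encodes a part of a nutrient-sensing complex, and ARMC7, each with an interval of 15, at 3738, 5987 and 2959 bp upstream.

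**Figure D1:**
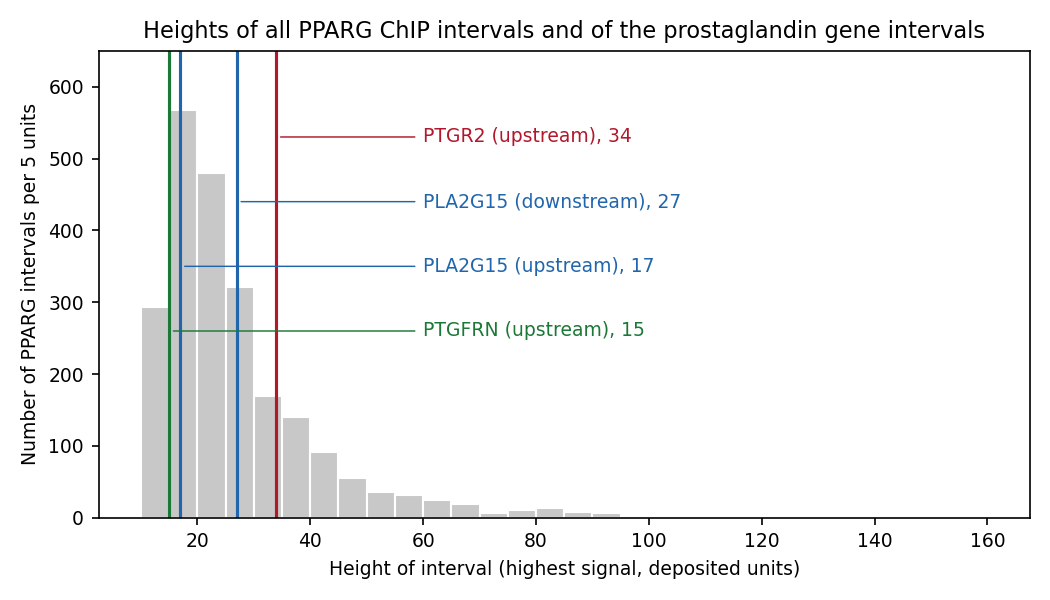
Number of PPARG ChIP intervals (vertical axis) by height in deposited signal units (horizontal axis, bins of 5 units), with a coloured line at each of the 4 intervals assigned to PTGFRN, PLA2G15 or PTGR2. The lines at 15, 17, 27 and 34 stand within the bulk of the list, whose median is 22 and whose highest interval reached 155.

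In order of height the 4 intervals were PTGR2 with 34, PLA2G15 with 27 and 17, and PTGFRN with 15. Their median was 22.0, the same as the median of all 2288 intervals, and 2 lay on each side of it. The plot of heights shows them in the body of the distribution, far below its upper end at 155. They also had different marks. A CpG island was marked in the PTGR2 interval and in the PLA2G15 interval at ESRP2. All 4 had a promoter mark, with another gene's start nearer to the summit at both PLA2G15 intervals. Of all 2288 intervals, 18.5% had both marks, 14.2% a promoter mark alone, 6.34% a CpG island alone and 60.9% neither. The 4 were taken by their assigned genes, so their marks cannot be read against these shares. Intervals with both marks had a median height of 27.0, and those with a promoter mark alone had 21.0.

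**Figure D2:**
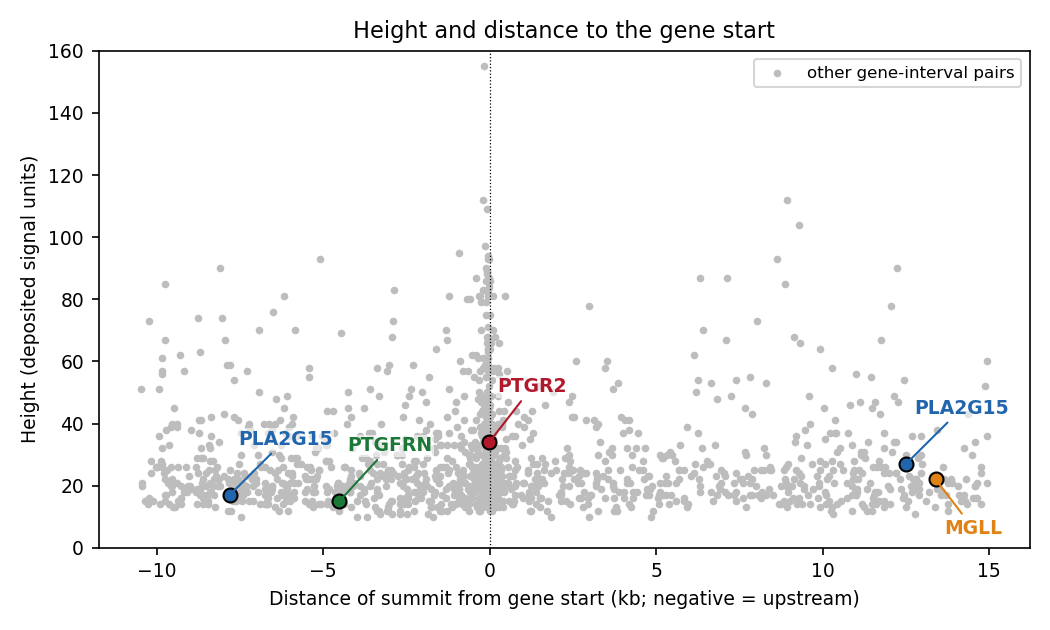
Height in deposited signal units (vertical axis) against the distance of the summit from the start of the assigned gene in kb (horizontal axis, negative upstream). Grey points are all other pairs of a gene and an interval within 15 kb, and large points are prostaglandin pathway genes, of which PTGR2 alone sits at the gene's start, at a height of 34, while PTGFRN and both PLA2G15 points lie 4515, 7807 and 12497 bp away.

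Around the intervals, the PLA2G15 locus was the most densely occupied. Within 1 Mb on either side of each PLA2G15 summit there were 7 other intervals, including the other PLA2G15 interval, and 81.9% of all PPARG intervals had fewer. PTGR2 and PTGFRN each had 3 such neighbours, equal to the median of 3.00 over all intervals. The nearest to PTGR2 lay 113 kb away at ENTPD5, a nucleotidase gene, with a height of 17 at 56 bp into the gene, and the nearest on the other side lay 847 kb away with no gene assigned and a height of 30. Next to the lower PLA2G15 interval was one of 28, 101 kb away and 2273 bp upstream of NFATC3. On the far side of the higher one, the next was at SNTB2, a syntrophin gene, 745 kb away with a height of 21. The neighbours of PTGFRN were an interval of 38 without a gene at 713 kb and one of 23 at 2644 kb, downstream of the start of HAO2, a peroxisomal hydroxyacid oxidase gene.

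**Figure D3:**
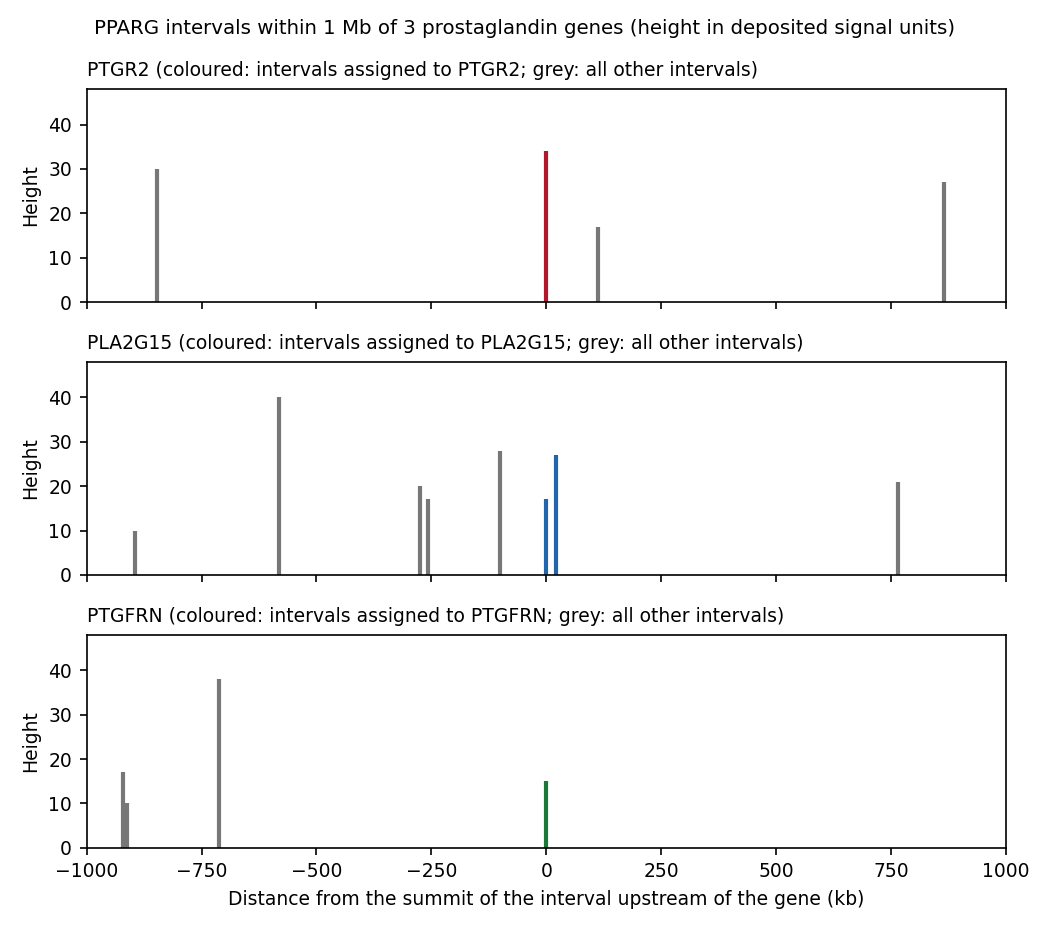
Height in deposited signal units (vertical axis) of every PPARG interval within 1 Mb (horizontal axis, distance in kb from the summit of the interval upstream of the gene) for PTGR2, PLA2G15 and PTGFRN. Coloured lines are intervals assigned to the gene and grey lines are all others; PLA2G15 shows 7 other intervals around its upstream interval and the other genes show 3 each.

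PTGS2 and PTGES, which stand at the centre of prostaglandin synthesis, had no assigned interval in either library. PTGS2 is the inducible cyclooxygenase and PTGES the inducible synthase of prostaglandin E. Genes next to them in the RefSeq gene order of assembly ARS-UI_Ramb_v3.0 were checked for intervals under their RefSeq names. None of the 20 nearest protein-coding genes of PTGS2, PLA2G4A beside it included, had one. Of the 20 nearest to PTGES, none had one under its RefSeq name, but 1 did under an older name: PPP2R4, the older symbol of the phosphatase activator PTPA, had a height of 49 in the gene, 31948 bp from its start (chromosome 3, 7269052 to 7271197). PTPA is 7 genes away from PTGES in that order. A count of 0 among the 20 nearest genes was found for 34.3% of 20598 protein-coding genes by RefSeq names, and the median count was 1.00.

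Beyond those 20 genes, in a search added after the data were seen, the next genes with an interval on either side of PTGS2 were NMNAT2 and CAMSAP2, 21 and 73 genes away. Their nearest intervals, with heights of 29 and 14, lay 15105 kb apart on chromosome 12, and the 4 intervals between them had no gene assigned. By RefSeq names the genes flanking PTGES were DDX31 and SLC25A25, with heights of 19 and 32 and 3972 kb between them. There the list held 4 intervals, those of PPP2R4 and WDR34, with 49 and 19, and 2 without a gene, with 16 and 13. Gene order may differ between the builds, and whether PTGS2 and PTGES lie in these stretches of Oar_v3.1 was not tested. The depth is unknown, and whether the authors' gene models hold PTGS2 and PTGES under these names was not checked. A gene without an interval is therefore one where none was listed under the names searched, not one shown to lack PPARG.

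The wider pathway was counted from a list. Of 43 genes listed for release, synthesis, transport, breakdown and reception of prostaglandins, 36 had their symbol in the RefSeq table, and 4 of these (11.1%) had an interval, PLA2G15, PTGR2, PTGFRN and MGLL. Among all 16387 named genes, 1521 (9.28%) had one, but 3 of the 4 list genes are among the 5 chosen here, which were picked with these intervals known, so neither the 11.1% nor the 3 of 5 can be read against that 9.28%. Without the 5, the list had 1 gene with an interval, MGLL, of 31 (3.23%). Leaving out the 5 took away 3 of the 4 genes with an interval, so the 3.23% cannot be read against the 9.28% either. The list was also drawn up with earlier results of these data in view. Stricter rules left fewer genes. The counts under them rest on the same choice, so they cannot be read against the shares of named genes either. At or above the median height of 22, 3 list genes remained (PLA2G15, MGLL and PTGR2), 2 of them among the 5, where 5.68% of named genes had such an interval. With the summit at most 5 kb from the start, PTGR2 and PTGFRN remained, where 4.07% of named genes had such an interval. With at most 1 kb only PTGR2 remained, where the share was 2.31%. Counting only intervals with a single gene, MGLL, PTGR2 and PTGFRN remained, where the share was 4.78%. With LOC identifiers and every gene type in the background, 4.95% of RefSeq names had an interval.

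By role the counts are small, and with 9.28% of all named genes holding an interval a count of 0 in a role does not set that role apart. Of 12 release genes, 2 had an interval, PLA2G15 and MGLL. MGLL encodes monoacylglycerol lipase, which frees arachidonic acid from a monoglyceride. Its interval had a height of 22, equal to the median of the list, at 13387 bp into the gene on chromosome 19 from 59535355 to 59536311, with neither mark and no other gene. Neither of the 2 prostaglandin H synthases, PTGS1 and PTGS2, had one. None of the 8 terminal synthases had one either, among them PTGES, PTGES2, PTGES3, PTGIS and AKR1B1, nor did SLCO2A1, the prostaglandin carrier. Of 3 breakdown genes, PTGR2 had an interval, while HPGD, the dehydrogenase that makes the keto products PTGR2 acts on, and PTGR1 had none. Among 10 receptors and receptor partners, PTGFRN had one, and the 9 receptor genes themselves, from PTGER1 to PTGER4, PTGFR, PTGDR, PTGDR2, PTGIR and TBXA2R, had none.

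**Figure D4:**
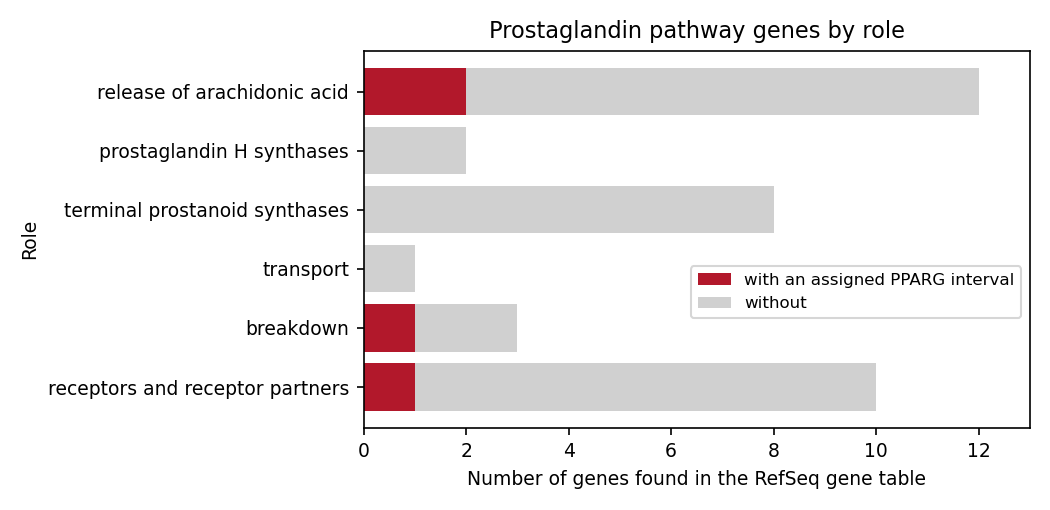
Number of prostaglandin pathway genes found in the RefSeq gene table (horizontal axis) by role (vertical axis), split into those with an assigned PPARG interval (red) and those without (grey). The 4 genes with an interval are 2 of 12 release genes, 1 of 3 breakdown genes and 1 of 10 receptors and partners; the 2 prostaglandin H synthases and 8 terminal synthases have none.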

How the data were processed

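Per the submitters' processing notes, BWA was used and the build was Oar_v3.1. The peak caller, threshold and gene models were not given in the sources used here. Per interval, the authors deposited the highest and mean signal of a density track, with no stated scaling between libraries. The deposited table also gives other per-interval values: lengths, numbers of bins, and counts of CpG islands, promoters and genes. The bin size, worked out here, was about 31.9 bp. Mean signal times bins was whole, within 0.01, in 100% of PPARG intervals. Heights are the authors' and only describe and rank intervals within this list.

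Genes were matched by name in Python 3.11.15 with pandas 2.3.3. The background was the 16387 named protein-coding genes of the RefSeq table of ARS-UI_Ramb_v3.0, used for names and gene order only. Of 1833 gene names in the list, 1521 RefSeq genes were reached, and older symbols can be missed. Members and lists were chosen with earlier results of these data known. Named genes were the members, listed genes with an interval, genes sharing or flanking a member interval, the 3 intervals most alike, and the nearest genes in RefSeq order up to 10 away. The windows of upstream distance, the older symbol and the wider search for flanking genes were added after the data were seen. With 1 library per group no test was made. The planned promoter motif search needed sequence and was not run.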

Additional observations from a re-analysis of the deposited data

How the results depend on the processing

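No paired analysis was possible because each group has 1 library, and for the same reason no library could be left out. Of the 5 genes, 3 had an interval. These genes were picked with the intervals known, so the backgrounds given here only describe the list of intervals. This became 2 at or above the median height (PTGR2 and PLA2G15), 2 with the summit within 5 kb of the start (PTGR2 and PTGFRN), 2 with intervals of a single gene (the same 2), and 1, PTGR2, within 1 kb, where the background was 2.31%. It stayed at 3 without the 5 intervals that overlap an input interval. The pathway list went from 4 of 36 to 2 within 5 kb (background 4.07%) and 1 within 1 kb. It was 3 at or above the median height (background 5.68%) and 3 with single-gene intervals (4.78%), and 4 without input overlaps. With LOC identifiers included the background was 4.95%, against 9.28% for named genes. Ranked by mean signal in place of height, the share of intervals below was 32.8% and 67.6% for the upstream and downstream PLA2G15 intervals, 22.1% for PTGFRN and 78.2% for PTGR2. Among intervals of the same position class it was 18.0% and 63.1% for PLA2G15, 9.92% for PTGFRN and 71.9% for PTGR2. The order of the 4 intervals was the same by all 3 measures. Unknown read totals and unknown gene models limit any statement on genes without an interval.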
